A study of Homo sapiens with 24 samples.

Results

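RNA abundance was measured by RNA sequencing in MDA-MB-468, an established cell line of triple-negative, basal-subtype breast cancer. The cells had been treated for 3 h with BETd-246 at 100 nM, a compound that degrades BET proteins. The 2 BETd-246 libraries were set against the 4 control libraries of the same line, 2 with DMSO (0.05% by volume) and 2 with thalidomide at 1000 nM, both for 3 h and both named as controls by the study. These 6 libraries are part of 24, which also cover the lines MDA-MB-157 and MDA-MB-231 and, in each line, BETi-211 at 1000 nM, a BET inhibitor, also for 3 h. Each combination of line and treatment had 2 libraries, described as independent biological replicates. The cells were close to confluence when treated, the labels give no genetic change made in any group, and a line comes from 1 tumour.

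BET proteins carry a pair of bromodomains with which they bind acetylated histones at promoters and enhancers, and they help RNA polymerase II to leave its pause near the start of a gene by way of the kinase P-TEFb. An inhibitor fills the bromodomain pocket and leaves the protein itself intact. A degrader also brings the protein to a ubiquitin ligase, so that the proteasome removes it. Thalidomide binds cereblon, the substrate receptor of a cullin ubiquitin ligase, and serves as a control for that binding. Because the exposure was short, RNAs with a short half-life can fall far within it, whereas long-lived RNAs change little even if their synthesis stops.

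The libraries of MDA-MB-468 held 14114 genes as FPKM, a fragment count divided by transcript length and by library depth, which is a unit inferred from the values. The step made by 1 fragment put the depth at 50.6 and 40.1 with BETd-246 and at 50.8 to 56.5 in the controls, in units of 1e6 fragments, and this depth is estimated. Log2 values of the libraries of a group correlated across genes with r = 0.9981 for BETd-246, and with 0.9981 for DMSO and 0.9969 for thalidomide. The median gene stood at 7.888 and 7.939 FPKM with BETd-246, against 9.688 to 10.059 FPKM in the 4 controls. Mitochondrial genes took 9.55% and 9.74% of the FPKM sum with BETd-246, against 7.18% to 8.33% in the controls. FPKM is a share of a library, so a change below is relative to the other RNAs of that library, and in cell lysates fewer cells that express a gene and less RNA per cell cannot be told apart.

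The labelled line matched its markers. The epithelial genes EPCAM (174.1 FPKM with BETd-246 and 152.4 in the controls, group means) and KRT8 (1561 and 1306 FPKM) and the basal keratin gene KRT5 (875.7 and 751.9 FPKM) were high, as was the amplified growth factor receptor gene EGFR (698.3 and 738.1 FPKM). The mesenchymal genes VIM (13.73 and 12.3 FPKM) and CDH2 (0 in all 6 libraries) were low or at 0, against control means of 1996 FPKM and 21.63 FPKM in MDA-MB-157. RB1 (0.3047 and 0.2491 FPKM) and SMAD4 (0.06609 and 0.1211 FPKM), genes known to be deleted in MDA-MB-468, were near 0 in both groups. Of the other markers, the table holds no row for SOX10, TP63, ESR1 or PGR. Markers of other cells were near 0: the 2 measured immune markers summed to 1.318 to 1.397 FPKM with BETd-246 and 1.222 to 1.504 FPKM in the controls, with neither called, and the 9 measured endothelial and fibroblast markers to 4.701 to 5.016 FPKM with BETd-246 and 4.366 to 4.756 FPKM in the controls, with 1 called lower.

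The controls were compared with each other first. No gene was called between thalidomide and DMSO (0 of 14114, 0%, limma, Benjamini-Hochberg adjusted p below 0.05). By the same test 1980 of the 14114 genes had an unadjusted p below 0.05, and the smallest adjusted p was 0.121. These 1980 are a larger share than the 0.05 that would arise without any difference, so the controls are not shown to be equal. Without thalidomide replicate 1, the count was 71, and with a pseudocount of 5 FPKM in place of 1 it was 22. CRBN, the cereblon gene, had 13.7 and 14.1 FPKM with BETd-246, against 15.9 and 15.3 FPKM with DMSO and 14.65 and 14.43 FPKM with thalidomide.

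BETd-246 lowered a large share of the transcripts and raised few by much. MYC, the proto-oncogene transcription factor, showed the largest fall of the table at 9.74-fold, followed by the genes of ID1, an inhibitor of DNA binding by helix-loop-helix factors, DKK1, a secreted Wnt antagonist, and PLK2, a polo-like kinase. The largest rise, at 11.1-fold, was in RNU4ATAC, a small nuclear RNA gene of the spliceosome. All folds and log2 changes were computed after adding 1 FPKM to each value, so that weakly expressed genes show less than their true change. By limma, 7602 of the 14114 genes were called (53.9%), 4759 of them lower (33.7%) and 2843 higher (20.1%). The median size of a called change was 0.45 (log2) for lower and 0.21 for higher genes. At a fold of 2 or more, 862 genes fell (6.11%) and 47 rose (0.333%), and at a fold of 4 or more, 88 fell and 19 rose. Protein-coding genes made up 794 of the 862 falls and 7 of the 47 rises. The BETd-246 libraries lay below all 4 controls in 860 of the 862 falls and above them in all 47 rises. Over the whole table, libraries did not overlap in the same way for 38.1% of genes downward and 25% upward.

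**Figure D1:**
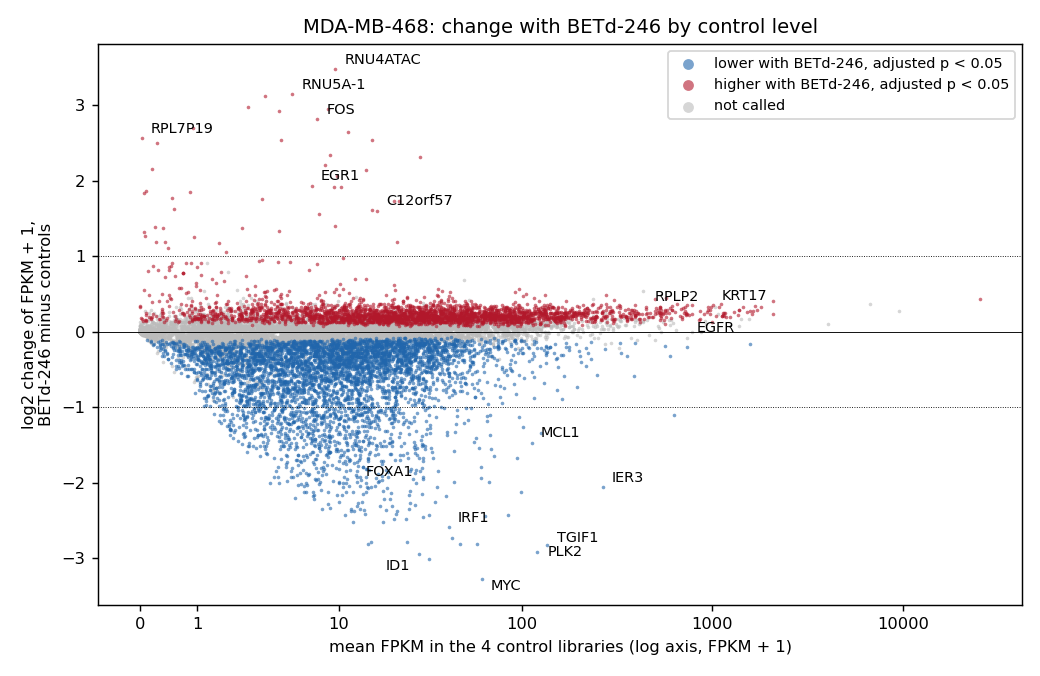
Each point is 1 of 14114 genes, with the mean FPKM of the 4 control libraries on the x axis (log axis) and the log2 change with BETd-246 on the y axis. Blue points were called lower and red points higher at an adjusted p below 0.05, and dotted lines mark a 2-fold change. Falls of 2-fold or more fill the range below 100 FPKM, while rises past 2-fold number 47 and genes above 100 FPKM stay mostly within 1 log2 unit.

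The direction of small changes followed the scaling between libraries, while that of large ones did so less. Of the called genes, 37.4% were higher in the deposited values. This share was 17.9% after scaling each library to the same FPKM sum (1274 higher, 5838 lower), 50.9% after upper-quartile scaling (4266 and 4122), 62.4% after quantile normalization (5415 and 3267) and 64.1% after median-of-ratios scaling (5980 and 3356). Over all genes the median change (log2) was -0.03 in the deposited values, and -0.10, 0.01, 0.07 and 0.09 under these scalings in the same order. Counts of small changes in the lists below depend on the scaling, and are read beside the 33.7% lower and 20.1% higher over all genes.

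MYC had 5.03 and 5.70 FPKM with BETd-246, against 59.4 and 58.9 FPKM with DMSO and 62.5 and 63.0 FPKM with thalidomide. The groups were far apart and the 2 kinds of control lay side by side. The log2 change was -3.28 ± 0.07 (SE, adjusted p = 1.03e-15, limma). Among 12 measured genes of the MYC and MAX network, which dimerise or compete for the same DNA letters, 7 fell and 0 rose, with a median of -0.29 against -0.03 over all genes. MXD1, an antagonist that pairs with MAX, fell by 1.35, MGA by 0.62 and MLX by 0.34 on the log2 scale. Under quantile normalization 7 fell and 2 rose.

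The ID genes and their BMP ligands fell together. ID1 had 2.94 and 3.15 FPKM with BETd-246, against 29.6 and 29.3 FPKM with DMSO and 33.3 and 34.6 FPKM with thalidomide. ID3, which like ID1 is a BMP target and blocks helix-loop-helix factors, had 7.11 and 7.45 FPKM, against 55.8 and 51.1 FPKM and 62.4 and 60.4 FPKM in the same controls. Both genes were about as low in either BETd-246 library, with log2 changes of -3.01 ± 0.06 and -2.81 ± 0.06 (SE). The ligand gene BMP4 fell by 2.20 and BMP2 by 1.67 on the log2 scale. Of 32 measured TGF-beta, BMP and ID genes, 23 fell (8 of them at least 2-fold) and 2 rose, with a median of -0.48 that stayed between -0.31 and -0.55 under the 4 scalings. TGIF1, a homeobox repressor of TGF-beta responses, had 17.4 and 18.7 FPKM with BETd-246, against 135 and 130 FPKM with DMSO and 135 and 138 FPKM with thalidomide. It fell by 2.83 ± 0.07 on the log2 scale.

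The remaining falls among the 15 largest were in genes of several kinds. PLK2 had 14.3 and 15.7 FPKM with BETd-246, against 121 and 123 FPKM with DMSO and 120 and 115 FPKM with thalidomide, a log2 change of -2.92 ± 0.05 (SE). DKK1 had 2.92 and 2.59 FPKM, against 29.02 and 28.05 FPKM with DMSO and 27.5 and 27.6 FPKM with thalidomide, a log2 change of -2.95 ± 0.06. In both genes the 4 controls lay close together and far above both treated libraries. RIPK4, a kinase of keratinocyte differentiation, and the zinc finger gene ZNF627 fell by 2.81, PDE4B, a phosphodiesterase that degrades cyclic AMP, by 2.79, and ZNF217, an oncogene amplified in breast cancer, by 2.78. CCDC71L, the interferon regulatory factor gene IRF1, the HSP90 co-chaperone gene FKBPL, ZNF436 and the Iroquois homeobox gene IRX5 completed the 15, with log2 changes from -2.73 to -2.48.

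**Figure D2:**
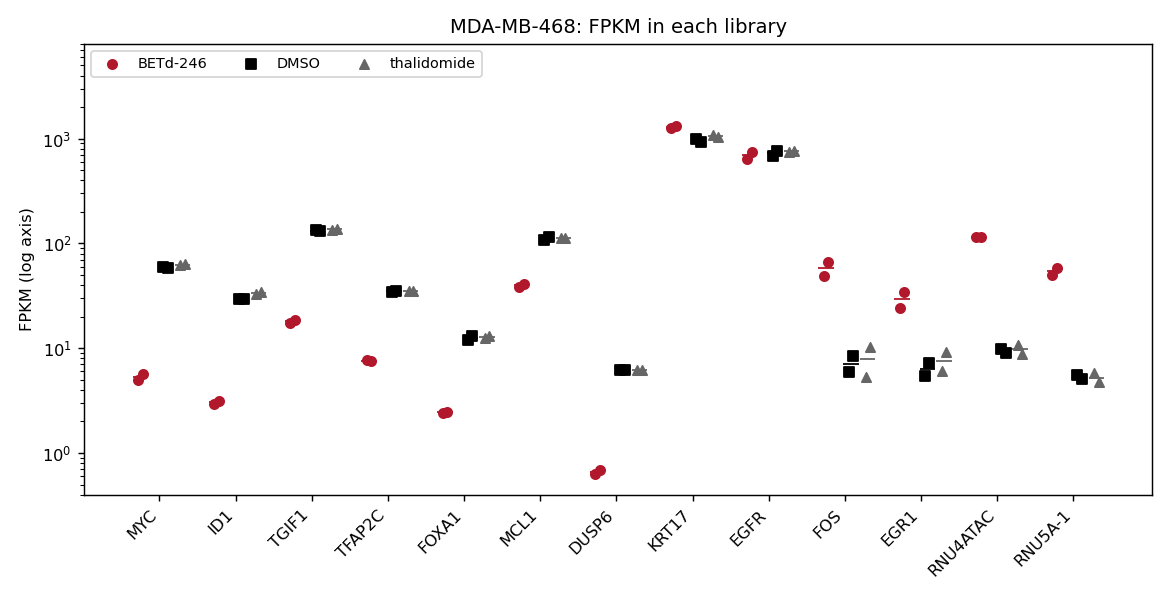
Each point is the FPKM of 1 gene in 1 library of MDA-MB-468 (log axis), with BETd-246 in red left of DMSO in black and thalidomide in grey, and short lines mark group means. For MYC through DUSP6 the BETd-246 points lie below all controls, for KRT17, FOS, EGR1, RNU4ATAC and RNU5A-1 they lie above them, and for EGFR the groups overlap.

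Transcription factors that set breast epithelial identity were among the groups that fell most. TFAP2C, an AP-2 factor of luminal and mammary progenitor cells, had 7.70 and 7.48 FPKM with BETd-246, against 34.7 and 35.01 FPKM with DMSO and 34.89 and 35 FPKM with thalidomide. FOXA1, a pioneer factor of luminal cells, had 2.41 and 2.47 FPKM, against 11.9 and 13.1 FPKM with DMSO and 12.6 and 13.1 FPKM with thalidomide. Replicates of each group nearly coincided in both genes, and the log2 changes were -2.06 ± 0.04 and -1.99 ± 0.04 (SE). The basal factor gene FOXC1 fell by 1.96, KLF5 by 1.85, GATA3 by 1.65, GRHL3 by 1.28 and XBP1 by 1.26 on the log2 scale. Of 18 measured genes of this list, 16 fell and 0 rose, 11 of them by at least 2-fold, with a median of -1.17. The median was -0.84 after quantile normalization (14 lower, 0 higher) and -1.0 after median-of-ratios scaling (16 lower, 2 higher). Of 6 measured luminal markers 4 fell and 0 rose, namely FOXA1, GATA3 and XBP1, which are also in that list, and ERBB2, the gene of HER2 (-0.69). Of 25 homeobox and SOX genes, 19 fell and 0 rose, among them SOX4 (-1.53), SIX4 (-1.40) and HOXC13 (-1.62), with a median of -0.55 that was -0.25 after quantile normalization (16 lower, 3 higher).

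Structural genes of the epithelium did not follow these factors. KRT17, a basal keratin, had 1256 and 1310 FPKM with BETd-246, against 987 and 920 FPKM with DMSO and 1079 and 1034 FPKM with thalidomide. It was higher in both treated libraries, by 0.35 ± 0.05 (log2, SE, adjusted p = 2.69e-05), but the call ended after quantile normalization and with a pseudocount of 0.1 FPKM. Of 32 measured keratin and adhesion genes, 18 were called higher and 4 lower, with a median of 0.16, and 7 higher and 6 lower after scaling to equal FPKM sums. CLDN4, a tight junction claudin, was the exception in size. It had 17.2 and 16.3 FPKM with BETd-246, against 59.2 and 56.5 FPKM with DMSO and 62.7 and 63.1 FPKM with thalidomide, and fell by 1.79 ± 0.05 (log2, SE), while CLDN3 fell by 0.38.

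The brakes on MAP kinase signalling fell together. DUSP6, the phosphatase of ERK, had 0.635 and 0.691 FPKM with BETd-246, against 6.18 and 6.23 FPKM with DMSO and 6.25 and 6.21 FPKM with thalidomide, a log2 change of -2.12 ± 0.07 (SE). SPRY2, a Sprouty inhibitor of receptor signalling, fell by 2.38, DUSP4 by 2.06 and DUSP5 by 1.87. Of 19 measured genes of this kind, 17 fell (8 at least 2-fold) and 0 rose, with a median of -0.88, or -0.53 after quantile normalization (15 lower, 1 higher). The receptor gene EGFR itself had 644 and 753 FPKM with BETd-246, against 678 and 764 FPKM with DMSO and 745 and 765 FPKM with thalidomide, groups that overlapped (log2 change -0.08 ± 0.07, adjusted p = 0.36, and called lower at -0.33 after quantile normalization). Among 25 receptor tyrosine kinase and ligand genes, 10 were called lower and 3 higher (10 and 10 after quantile normalization), the falls led by the ephrin genes EFNA1 (-1.83) and EFNB2 (-1.63) and the ephrin receptor gene EPHA2 (-1.10).

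Immediate-early genes, which respond to signals within minutes, split into falls and rises. Of 31 measured, 19 fell, 9 of them by at least 2-fold, and 10 rose, 3 of them by at least 2-fold. IER3, IER5 and IER5L fell by 2.06, 2.18 and 2.36 on the log2 scale, and the AP-1 genes FOSL2 and FOSL1 by 1.68 and 0.94. FOS, the founding AP-1 gene, had 49.2 and 66.4 FPKM with BETd-246, against 5.92 and 8.36 FPKM with DMSO and 5.34 and 10.4 FPKM with thalidomide. EGR1, a zinc finger factor of the same early wave, had 24.2 and 34.3 FPKM, against 5.40 and 7.21 FPKM with DMSO and 6.01 and 9.18 FPKM with thalidomide. Replicate 2 was above replicate 1 in each of the 3 groups for both genes. The log2 changes were 2.81 ± 0.18 for FOS (SE, adjusted p = 8.73e-10) and 1.93 ± 0.15 for EGR1 (adjusted p = 1.13e-08). JUN rose by 0.62, the orphan receptor gene NR4A1 by 0.90 and CTGF, a YAP target, by 0.92, whereas JUNB had 47.17 and 52.96 FPKM with BETd-246 and 44.3 to 56.0 FPKM in the controls (log2 change 0.05, adjusted p = 0.607, and called higher at 0.23 after median-of-ratios scaling).

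Stress response genes, of the integrated stress response and of unfolded protein signalling, were mostly lower. CEBPB, a bZIP factor induced by stress and cytokines, had 10.6 and 11.1 FPKM with BETd-246, against 61.1 and 61.5 FPKM with DMSO and 64.9 and 66.1 FPKM with thalidomide, a log2 change of -2.44 ± 0.05 (SE). DNAJB9, a chaperone of the endoplasmic reticulum, fell by 1.84, PPP1R15B, the constitutive partner of the eIF2alpha phosphatase, by 1.68 and CEBPG by 1.08. Of 30 measured genes, 19 fell (13 at least 2-fold) and 5 rose, with a median of -0.76 that lay between -0.58 and -0.86 under the 4 scalings. Among 24 heat shock and chaperone genes, 10 fell and 6 rose, led by the heat shock factor gene HSF2 (-1.16) and the haem oxygenase gene HMOX1 (-1.13), with a median of 0.01, and 7 fell and 14 rose after median-of-ratios scaling. Clock and nuclear receptor genes also fell: of 28 measured, 20 fell and 1 rose, with BHLHE40 at -2.29, the glucocorticoid-induced kinase gene SGK1 at -2.22 and NFIL3 at -1.74 (16 lower and 7 higher after quantile normalization).

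Genes of survival and of death fell side by side. MCL1, an anti-apoptotic member of the BCL2 family with a short-lived RNA, had 38.3 and 41.4 FPKM with BETd-246, against 109 and 115 FPKM with DMSO and 113 and 113 FPKM with thalidomide, a log2 change of -1.47 ± 0.04 (SE, adjusted p = 1.03e-13). BIRC3 fell by 0.75, BIRC2 by 0.63 and BCL2L1, which encodes BCL-XL, by 0.51. Of the 10 measured survival genes, 8 fell and 1 rose, and of the 25 measured pro-death genes, 16 fell and 3 rose. The pro-death genes included FADD, the adaptor of death receptors (-2.26), BMF (-1.16), the TNF receptor gene TNFRSF1A (-1.04), BBC3 (-1.03) and BCL2L11, which encodes BIM (-0.77). Medians of the 2 lists were -0.32 and -0.29, and -0.14 and -0.12 after median-of-ratios scaling.

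Cell cycle genes fell in part. Of 19 measured G1 cyclin, CDK and E2F genes, 11 fell (5 at least 2-fold) and 3 rose, and 10 fell and 7 rose after median-of-ratios scaling. E2F2 fell by 1.64, the CDK-activating phosphatase gene CDC25A by 1.63, E2F8 by 1.45 and E2F3 by 1.08 on the log2 scale. CCND1, cyclin D1, was called lower by 0.12, lost the call at -0.08 without BETd-246 replicate 1 and stood at 0.07 after median-of-ratios scaling. Of 30 mitotic genes, 18 fell and 2 rose, with WEE1, the kinase that holds CDK1 back, at -1.61, the cyclin F gene CCNF at -1.36 and AURKA at -0.86, and after median-of-ratios scaling 8 fell and 9 rose. Of 8 CDK inhibitor genes 4 fell and 3 rose. CDKN1B (p27) fell by 1.10, whereas CDKN1A (p21) had 16.7 and 19.6 FPKM with BETd-246 and 16.5 to 18.6 FPKM in the controls (log2 change 0.07 ± 0.06, adjusted p = 0.31). CDKN1A was called higher at 0.14 to 0.25 under upper-quartile, quantile and median-of-ratios scaling, and at 0.19 without BETd-246 replicate 1. Of 33 replication genes 12 fell and 8 rose, near the shares over all genes and none by 2-fold (6 lower and 17 higher after median-of-ratios scaling). Of 32 homologous recombination and Fanconi genes 14 fell and 0 rose, with PALB2, the partner of BRCA2, at -1.35 (7 lower and 9 higher after quantile normalization). Of 24 p53 target genes, 15 fell and 4 rose, among them PLK2, AEN (-1.34), PPM1D (-1.26) and SESN2 (-0.98), which fell. After quantile normalization or median-of-ratios scaling 12 of this list were lower and 7 higher.

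Parts of the machinery that BET proteins work with fell as well. MEPCE, the capping enzyme of 7SK RNA, had 9.87 and 10.4 FPKM with BETd-246, against 31.9 and 32.2 FPKM with DMSO and 32.8 and 34.2 FPKM with thalidomide, a log2 change of -1.60 ± 0.04 (SE). HEXIM1, the inhibitor that 7SK holds on P-TEFb, fell by 1.10, CCNT1, the cyclin of P-TEFb, by 1.17 and the elongation factor gene ELL by 1.20. Of 26 measured genes of this group 14 fell and 2 rose, with a median of -0.17 that was 0.00 after median-of-ratios scaling (12 lower, 7 higher). The BET gene BRD2 fell by 1.19 ± 0.04, the bromodomain genes BRPF1 and BRD1 by 1.52 and 1.31, and BRD3 was called lower by 0.23 (adjusted p = 0.0207), lost the call without either BETd-246 library, DMSO replicate 1 or thalidomide replicate 2 (-0.20 to -0.25) and stood at 0.10 after quantile normalization. Of 21 BET and bromodomain genes 10 were called lower and 1 higher, and 9 lower and 4 higher after quantile normalization. Of 12 cereblon ligase genes, 4 were called lower and 5 higher, none of them by 2-fold, and CRBN was called lower by 0.11 (adjusted p = 0.0477), lost the call without either BETd-246 library, either thalidomide library or DMSO replicate 1 (-0.09 to -0.13) and stood at 0.07 after median-of-ratios scaling and 0.06 after quantile normalization. Of 35 Mediator and RNA polymerase II genes, 13 were called lower and 8 higher, near the shares over all genes (33.7% lower and 20.1% higher), and 8 lower and 17 higher after median-of-ratios scaling; the Mediator genes MED17 (-1.58) and MED7 (-1.26) fell. Of 23 SR splicing factor and CLK genes, 13 fell and 2 rose, led by the kinase genes CLK4 (-1.82) and CLK1 (-1.67), and 8 were lower and 4 higher after median-of-ratios scaling.

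Where list medians are near 0, their direction depended on the scaling: those of the bromodomain, recombination, replication, heat shock, sterol, Mediator, Notch, receptor kinase, CDK inhibitor, cereblon ligase, interferon, SNHG host and named long non-coding RNA lists, and of the immune and the endothelial and fibroblast markers, changed sign under at least 1 of the 4 scalings.

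Other signalling lists held strong falls among smaller changes. IRF1 had 5.87 and 5.92 FPKM with BETd-246, against 38.6 and 38.6 FPKM with DMSO and 43.0 and 42.2 FPKM with thalidomide, a log2 change of -2.59 ± 0.05 (SE). SOCS6 and SOCS5 fell by 1.64 and 1.46, whereas SOCS3, the feedback inhibitor of STAT3, had 12.6 and 12.2 FPKM with BETd-246, against 6.33 and 6.62 FPKM with DMSO and 6.85 and 6.82 FPKM with thalidomide, and rose by 0.81 ± 0.05 (SE, adjusted p = 3.32e-10). The list of 33 interferon and STAT genes had 11 falls and 14 rises, and 12 falls and 6 rises after scaling to equal sums. The list of NF-kB factors and cytokines had 17 falls and 2 rises among 22 genes, with CSF1 at -1.24 and the inhibitor genes NFKBIE and NFKBIZ at -1.21 and -1.07. Of 30 Wnt genes 16 fell and 4 rose, with AXIN2, a feedback target, at -1.52 and the receptor gene FZD7 at -1.07 (14 lower and 5 higher after quantile normalization). Of 24 Notch genes 12 fell and 4 rose, with the ligand gene JAG1 at -1.20 and HES1 at -0.91 (10 lower and 11 higher after median-of-ratios scaling), and of 20 YAP and TEAD genes 11 fell and 2 rose, with AMOTL2 at -1.37 (10 lower and 7 higher under that scaling). Of 30 glycolysis and hypoxia genes 9 fell, led by VEGFA (-1.43), and 14 rose, such as GPI (0.33), while 10 were lower and 9 higher after scaling to equal sums. Of 24 sterol genes 10 fell and 7 rose, and 6 fell and 14 rose after median-of-ratios scaling. Of 32 nucleolar ribosome biogenesis genes 18 fell, such as URB2 (-1.48) and PPAN (-1.38), and 3 rose, while 15 were lower and 12 higher after median-of-ratios scaling (median -0.24, and -0.06 under it).

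Relative to the rest of the library, genes of abundant RNAs were slightly higher. Of 50 ribosomal protein genes 48 were called higher and 0 lower, with a median of 0.26, and RPS15 had 227 and 225 FPKM with BETd-246, against 162 and 156 FPKM with DMSO and 179 and 186 FPKM with thalidomide (log2 change 0.41 ± 0.06, SE). After quantile normalization 14 were higher, 2 lower, and the median was 0.06. Of 35 nuclear respiratory chain genes 24 were higher and 0 lower (median 0.18, and 0.09 after quantile normalization), and of 13 mitochondrially encoded ones 11 were higher and 0 lower, with a median of 0.48 that lay between 0.38 and 0.67 under the 4 scalings. Of 31 proteasome genes 18 were higher and 0 lower (median 0.15, and 0.05 after quantile normalization or scaling to equal sums), and of 33 lysosome and autophagy genes 17 were higher and 5 lower (9 higher and 6 lower after scaling to equal sums). Of 20 SNHG host genes of small nucleolar RNAs 9 were called lower and 2 higher, and 4 lower and 7 higher after median-of-ratios scaling, while of 23 named long non-coding RNAs 2 were lower and 5 higher.

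**Figure D3:**
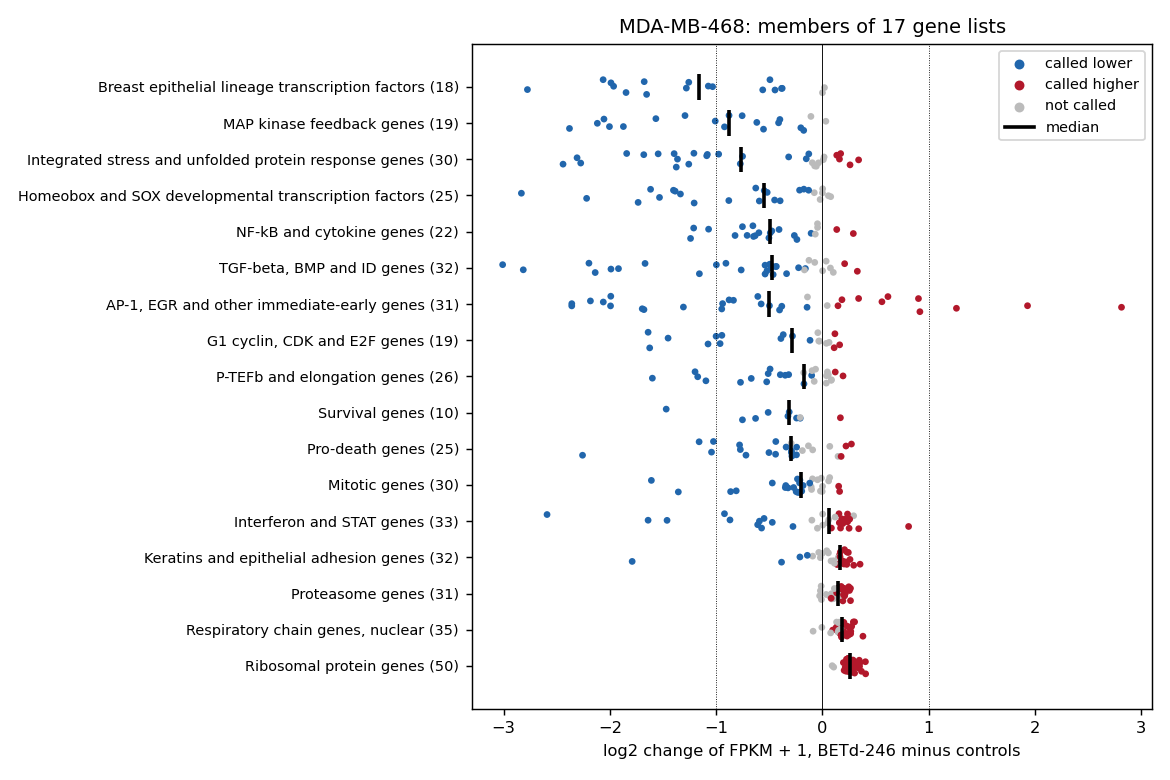
Each point is 1 measured member of 17 gene lists, with its log2 change with BETd-246 in MDA-MB-468 on the x axis, and the black bar is the median of the list. Blue members were called lower, red ones higher and grey ones not called. Medians run from -1.17 for lineage transcription factors to 0.26 for ribosomal protein genes, and the medians near 0 move with the scaling, that of ribosomal protein genes to 0.06 after quantile normalization.

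Genes with few counted exons and genes with short bodies fell at least 2-fold at a higher rate, a description over genes with no test. Among 8628 protein-coding genes with a mean of at least 5 FPKM over the 6 libraries, 565 (6.55%) fell at least 2-fold. Exons were counted in the annotated transcript with the most exonic bases, which can hold fewer exons than other transcripts of the gene. GINS3, for example, counted as 1 exon although its gene spans chr16:58295080-58406144. All exon numbers here are of this kind, so they describe 1 transcript and not the whole gene. The share was 18.5% of 292 genes with 1 counted exon, 19.8% of 535 with 2 and 10.7% of 1292 with 4 to 5. It was 3.27% of 1588 with 9 to 12 and 0.824% of 1092 with 21 or more. By gene length it was 11.7% of 702 genes under 5 kb, against 1.57% of 1529 genes of 100 kb or more. Genes under 5 kb were also called higher most often, at 42.7%, against 22.7% at 100 kb or more and 27.4% of all 8628. The short genes thus did not fall as a class, and their median log2 change was 0.1. By level, the mean over the 6 libraries, the share of strong falls went from 13.4% at 5 to 10 FPKM to 0.365% at 100 FPKM or more. This mean includes the BETd-246 libraries, so a gene's own fall lowers its level and part of the trend is built in. The unit of 1 FPKM added before the logarithm lowers the change of low genes most. Within 5 to 20 FPKM, 30.4% of 148 genes with 1 exon and 1.04% of 675 genes with 21 or more fell at least 2-fold, and at 20 FPKM or more 6.25% of 144 and 0.48% of 417 did. RNA half-life was not measured.

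**Figure D4:**
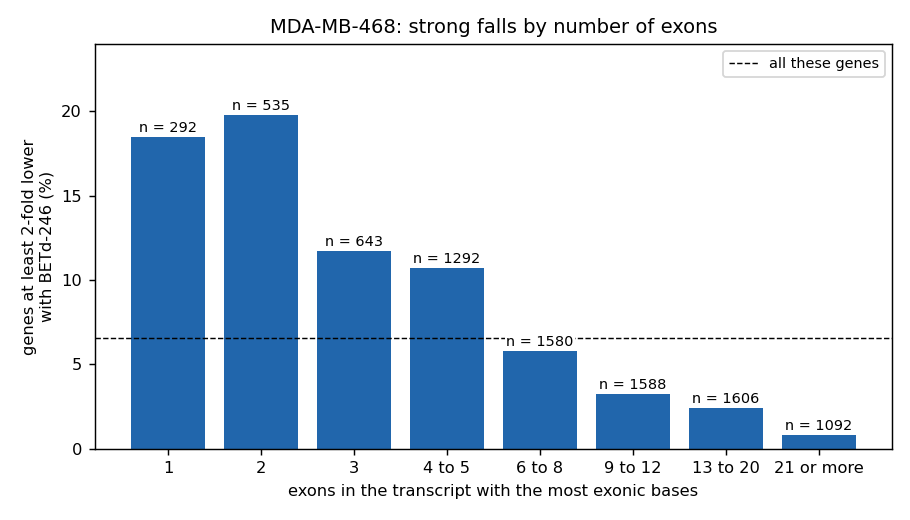
Bars give the percentage of protein-coding genes of MDA-MB-468 that fell at least 2-fold with BETd-246, by the number of exons in the transcript with the most exonic bases, and n is the number of genes per bar. The dashed line is the 6.55% of all 8628 genes, and the share declines past 2 exons to 0.824% at 21 or more.

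Zinc finger genes were a large block of the falls. Of 434 measured ZNF genes, which mostly encode KRAB repressors or related DNA-binding proteins, 380 fell and 6 rose, and 155 (35.7%) fell at least 2-fold, beside 6.59% of all 12046 protein-coding genes. Their median was -0.77, and -0.46 after quantile normalization (316 lower, 32 higher). Of 36 ZBTB genes 15 fell at least 2-fold, of 15 ZSCAN genes 8, of 12 KLF genes 5 and of 4 IRX genes 3. These families were picked by symbol after their values were seen. Without ZNF genes, 18% of genes with 1 counted exon and 0.827% of those with 21 or more fell at least 2-fold.

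The stretch before the start of 4 genes that fell (ID1, ID3, DKK1 and IRF1) and of FOS and EGR1, early genes that rose, is shown to set their promoter letters side by side. Each sequence is the 250 bases before the RefSeq transcription start on the strand of the gene, in build GRCh38.p14, written 5' to 3'. Capitals mark, on either strand, the letters TATAAA of the TATA box, those of the CCAAT box, the GC box (GGGCGG) and the CArG box, the serum response element core.
ID1 (chr20:31605039-31605288, plus strand): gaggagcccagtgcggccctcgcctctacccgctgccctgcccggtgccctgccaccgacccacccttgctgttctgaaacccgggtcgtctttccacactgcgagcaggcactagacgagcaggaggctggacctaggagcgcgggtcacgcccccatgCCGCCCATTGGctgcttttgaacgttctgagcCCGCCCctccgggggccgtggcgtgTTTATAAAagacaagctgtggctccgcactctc
ID3 (chr1:23559502-23559751, minus strand): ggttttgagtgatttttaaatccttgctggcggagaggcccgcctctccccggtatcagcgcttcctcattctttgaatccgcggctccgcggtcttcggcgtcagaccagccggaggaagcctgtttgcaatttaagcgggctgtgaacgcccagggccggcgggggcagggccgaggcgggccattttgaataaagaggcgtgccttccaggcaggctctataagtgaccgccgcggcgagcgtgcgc
DKK1 (chr10:52314031-52314280, plus strand): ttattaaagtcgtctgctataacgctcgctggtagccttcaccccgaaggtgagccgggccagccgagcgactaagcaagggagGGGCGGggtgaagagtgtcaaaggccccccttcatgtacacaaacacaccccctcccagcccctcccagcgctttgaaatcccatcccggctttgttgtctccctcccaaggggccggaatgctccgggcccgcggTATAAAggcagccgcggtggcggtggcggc
IRF1 (chr5:132490774-132491023, minus strand): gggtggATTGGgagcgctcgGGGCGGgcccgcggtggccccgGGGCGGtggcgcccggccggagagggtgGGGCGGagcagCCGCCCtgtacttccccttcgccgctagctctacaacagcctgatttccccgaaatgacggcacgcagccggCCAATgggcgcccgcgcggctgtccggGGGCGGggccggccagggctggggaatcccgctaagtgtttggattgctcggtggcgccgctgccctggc
FOS (chr14:75278578-75278827, plus strand): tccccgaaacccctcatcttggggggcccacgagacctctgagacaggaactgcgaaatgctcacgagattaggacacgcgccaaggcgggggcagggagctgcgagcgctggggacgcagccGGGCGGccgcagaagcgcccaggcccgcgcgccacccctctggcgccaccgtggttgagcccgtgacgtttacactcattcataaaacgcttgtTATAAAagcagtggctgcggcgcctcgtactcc
EGR1 (chr5:138465229-138465478, plus strand): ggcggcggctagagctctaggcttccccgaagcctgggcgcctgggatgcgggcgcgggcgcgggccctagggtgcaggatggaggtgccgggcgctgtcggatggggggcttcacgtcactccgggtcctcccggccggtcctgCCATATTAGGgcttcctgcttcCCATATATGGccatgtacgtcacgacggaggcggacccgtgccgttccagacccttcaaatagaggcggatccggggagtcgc

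TATA letters lay 30 to 25 bases before the start in DKK1 and 33 to 28 bases before it in FOS. In ID1 they stood on both strands in an overlap, at 33 to 28 and 31 to 26 bases. EGR1 held CArG boxes at 105 to 96 and 83 to 74 bases before its start, IRF1 held 5 GC boxes, and ID3 held none of the 4 motifs in this window. FOS showed no CArG box within these 250 bases, and bases further upstream were not searched in any gene. Over the promoters of the 8628 genes above, 7170 were matched (83.1%), among them 456 of the 565 strong falls (80.7%). TATA letters were in 6.80% of these falls and 5.15% of all matched promoters, CCAAT in 45% and 36.6%, GC boxes in 71.3% and 70.1%, the E-box CACGTG in 7.89% and 9.26%, and CArG boxes in 0.877% and 1%. The letters of AP-1 sites (TGAGTCA) were in 1.97% and 2.16%, and those of cyclic AMP response elements (TGACGTCA) in 3.07% and 3.33%. The widest gap was that of CCAAT, with no test made. A match is a run of letters, not a site shown to be bound.

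Small nuclear RNA genes were a large class among the rises. Of 33 measured genes annotated as snRNA, 22 rose and 2 fell, and 17 (51.5%) rose at least 2-fold, with a median log2 change of 1.19 that lay between 1.09 and 1.37 under the 4 scalings. These RNAs are the cores of the spliceosome, and RNA polymerase II makes the ones shown here from promoters of their own and ends them at a nearby 3' box. Libraries of this kind keep few molecules this short, so the counted fragments need not come from mature RNA. RNU4ATAC, the snRNA gene with the largest rise, is printed as annotated in GENCODE 29 on GRCh38, in DNA letters, with the last match to the letters of the Sm protein site (ATTTTT) in capitals.
RNU4ATAC (chr2:121530881-121531007, plus strand): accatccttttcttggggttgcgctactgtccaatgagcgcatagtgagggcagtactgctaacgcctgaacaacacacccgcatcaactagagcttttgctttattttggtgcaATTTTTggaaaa

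RNU4ATAC, the U4atac RNA of the minor spliceosome, had 115 and 116 FPKM with BETd-246, against 9.74 and 9.03 FPKM with DMSO and 10.8 and 8.78 FPKM with thalidomide, a log2 change of 3.47 ± 0.14 (SE, adjusted p = 2.14e-12). RNU5A-1 had 50.3 and 58.9 FPKM, against 5.54 and 5.14 FPKM with DMSO and 5.76 and 4.74 FPKM with thalidomide. Every treated library was several times above every control in both genes. The U5 genes are near-identical copies, so fragments can be assigned to the wrong copy and the value of a single U5 gene is uncertain. The same can hold for the U1 copies and variants, such as RNVU1-6, RNVU1-15 and RNU1-120P. The 17 snRNA genes that rose at least 2-fold need therefore not be separate signals. RNU5A-1 rose by 3.14 ± 0.14, RNU5B-1 by 2.97 ± 0.24, RNU5D-1 by 2.64 ± 0.25 and the U1 variant RNVU1-6 by 2.54 ± 0.19 on the log2 scale (SE). SNORD3B-1, a gene of the U3 RNA that processes ribosomal RNA, rose by 2.34 ± 0.12. Of all 164 measured small nucleolar RNA genes, SNORD3B-1 included, 47 fell and 4 rose, and 23 (14%) fell at least 2-fold, beside 6.11% over all genes. Their median was -0.34, and -0.11 after quantile normalization (33 lower, 7 higher).

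The other non-coding rises lay mostly past the 3' ends of coding genes. Of the 47 genes that rose at least 2-fold, 20 were small nuclear or nucleolar RNA genes, and of the 25 others with a record in the annotation, 5 lay within 2 kb of another such gene, beside 7.89% of 13744 other genes. C12orf57 had 51.06 and 52.95 FPKM with BETd-246, against 17.64 and 15.04 FPKM with DMSO and 16.6 and 16.9 FPKM with thalidomide, and the antisense transcript U47924.31 rose by 2.49. Both lie within 2 kb of RNU7-1, the gene of U7 small nuclear RNA, and TMEM107, which rose by 1.40 ± 0.09 (log2, SE), lies as near to SNORD118, the gene of U8 RNA. RNU12, the U12 gene, is among the 25 as its record in the table is a long non-coding one, and rose by 2.53. Of 17 annotated non-coding risers, small nuclear and nucleolar RNAs left out, 12 (70.6%) lay within 10 kb past a coding gene's 3' end. This held for 397 of all 1695 such genes (23.4%), and the window was chosen after the data were seen. The 12 are not all separate places. RP11-779O18.1 and RP11-779O18.2 overlap each other, and RN7SL473P and RN7SL600P both follow MCL1 and ADAMTSL4. Of the 17, 5 (29.4%) overlapped a coding gene, beside 43.1% of all such genes. RPL7P19, a pseudogene 4429 bases past the end of EGR1, had 4.69 and 5.41 FPKM with BETd-246, against 0 and 0.0257 FPKM with DMSO and 0.0525 and 0.0272 FPKM with thalidomide. It was nearly silent in every control, and its log2 change was 2.56 ± 0.12. RP11-779O18.2 and RP11-779O18.1 lie 4832 and 5534 bases past DUSP1, whose log2 change was -0.20, -0.13 and no longer called without BETd-246 replicate 1, and 0.07 after quantile normalization. By contrast, RN7SL600P and RN7SL473P lie 5282 and 7691 bases past MCL1, which fell by 1.47, and also past ADAMTSL4, which rose by 0.85. RP11-196G18.22 lies 3108 bases past the histone gene HIST2H4B, which rose by 0.92. The kit does not keep the strand, so reads of these transcripts and of overlapping or neighbouring genes cannot be told apart. CTD-3014M21.1 (2.95), AC245407.1 (2.92), RP11-386I14.4 (3.12) and AP000692.10 (2.69) also rose, and the last 2 are annotated as antisense and overlap DNAJB4 and MORC3.

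Coding genes seldom rose by much. The 7 coding genes past 2-fold were FOS, EGR1, C12orf57 and TMEM107 at 5 FPKM or more and KIAA1683 (2.15), ARC (1.26) and HIST1H2BE (1.19) below that level. The next by size among genes above 5 FPKM were HIST1H4I (0.93), HIST2H4B (0.92), CTGF (0.92), NR4A1 (0.90), SOCS3 (0.81) and the neuronal tubulin gene TUBB3 (0.69).

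MDA-MB-468 shared most of the falls of the other lines and had more falls in all. Of its 862 falls of at least 2-fold, 481 (55.8%, and 81.1% of that line's 593, 4.2% of genes) fell as far in MDA-MB-157 and 507 (58.8%, and 78.7% of that line's 644, 4.56% of genes) in MDA-MB-231, while 257 did so in neither. A test of the difference itself, the effect in MDA-MB-468 minus the mean effect in the other 2 lines, called 1920 genes (13.6%), 1329 lower (9.42%) and 591 higher (4.19%). At a difference of at least 2-fold, 73 were lower (0.517%) and 24 higher (0.17%). Of the 257 falls above, 216 had a difference called lower. The 257 were picked by the same values that this test uses, so a high count was built in and is no separate support. Of the 257, 32 stood below 1 FPKM in the controls of both other lines and had little to lose there. Among 7321 genes with at least 5 FPKM in the controls of each line, 661 differences were lower and 222 higher.

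The largest differences were in genes that MDA-MB-468 expresses and the other lines hardly do. FOXI1, a forkhead factor of ion-transporting epithelia, fell to 1.83 FPKM in MDA-MB-468, against 14.2 FPKM in its controls (means of 2 and 4 libraries), while the control means in MDA-MB-157 and MDA-MB-231 were 0.0120 and 0.00227 FPKM. The difference was -2.48 ± 0.06 (log2, SE, adjusted p = 1.13e-13). EDN2, an endothelin, and PRR15L differed by -2.32, FOXA1 by -2.01 and EGFR-AS1, which overlaps EGFR on the other strand, by -1.98, and all 4 had control means below 1 FPKM in both other lines. BMP2 (-1.64), GRHL3 (-1.24) and GATA3 (-1.14) likewise stood below 2 FPKM in the controls of both. The kit keeps no strand, so reads of EGFR-AS1 cannot be told from those of EGFR. The controls of EGFR-AS1 in MDA-MB-468 also spread widely, from 6.277 to 12.37 FPKM. TRIB1, a pseudokinase, was expressed in all 3 lines, with control means of 12.9 FPKM in MDA-MB-468, 9.39 in MDA-MB-157 and 2.48 in MDA-MB-231. Its log2 change was -2.27 in MDA-MB-468, -0.72 in MDA-MB-157 and 0.38 in MDA-MB-231, a difference of -2.10 ± 0.10.

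Among genes well expressed in each line, MYC and the ID genes fell further in MDA-MB-468. The log2 change of MYC was -3.28 in MDA-MB-468, -1.91 in MDA-MB-157 and -2.51 in MDA-MB-231, a difference of -1.07 ± 0.08 (SE, adjusted p = 8.04e-08). ID1 was at -3.01, -2.01 and -1.73 in the same order (difference -1.14 ± 0.07), and ID3 at -2.81, -2.44 and -0.77 (-1.21). CCDC71L differed by -1.01. PDE4B (-1.63), IRX5 (-1.42), CLDN4 (-1.32), HOXC13 (-1.08) and AXIN2 (-1.07) also differed, each with a control mean below 2 FPKM in at least 1 of the other lines. Other differences had the opposite sign. ADM, the adrenomedullin gene, fell by 0.64 in MDA-MB-468, by 2.32 in MDA-MB-157 and by 1.73 in MDA-MB-231 (difference 1.39 ± 0.09), DUSP10 differed by 1.06 and the Groucho gene TLE3 by 0.90. JUN had log2 changes of 0.62, 0.03 and -1.02 in the same order (1.11), and SOCS3 of 0.81, -0.18 and -0.22 (1.01). C12orf57 (1.26), U47924.31 (1.45) and AP000692.10 (2.19) rose further in MDA-MB-468, whereas EGR1 rose by 1.93 here, by 3.20 in MDA-MB-157 and by 4.43 in MDA-MB-231 (-1.89 ± 0.18), and JUNB had log2 changes of 0.05, 0.60 and 1.52 (-1.02). The genes well expressed in each line were chosen after the data were seen.

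**Figure D5:**
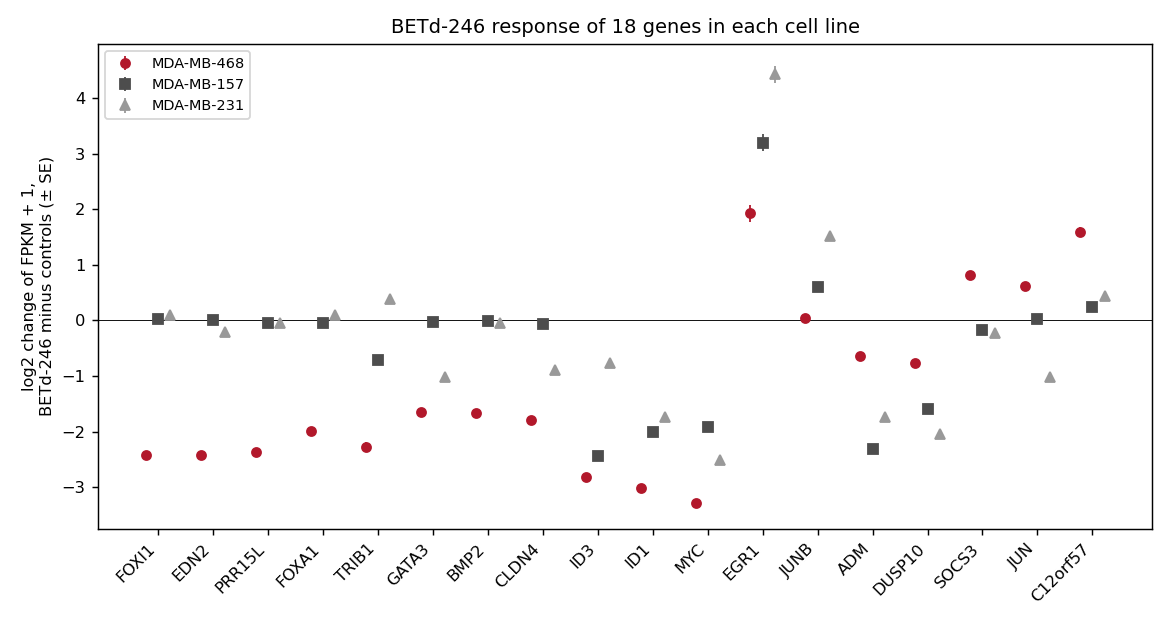
Points are log2 changes with BETd-246 for 18 genes, in MDA-MB-468 (red circles), MDA-MB-157 (dark squares) and MDA-MB-231 (grey triangles), and bars are the SE of the fit. FOXI1, EDN2, PRR15L, FOXA1 and BMP2 fall by more than 1.5 in MDA-MB-468 and lie near 0 in the other lines, while EGR1 rises least in MDA-MB-468.

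BETi-211 was used at another dose and shares the 4 controls, so its values are only set beside those of BETd-246. In MDA-MB-468, 311 genes fell (2.2%) and 192 rose (1.36%) at least 2-fold with BETi-211, beside 862 and 47 with BETd-246. MYC changed by -3.28 ± 0.07 with BETd-246 and by -1.58 ± 0.07 with BETi-211 (log2, SE), DKK1 by -2.95 and -2.67, EDN2 by -2.42 and -2.41, FOXI1 by -2.42 and -2.79, and ID1 by -3.01 and -0.32. BRD2 changed by -1.19 with BETd-246 and 1.43 with BETi-211, HEXIM1 by -1.10 and 0.90, MEPCE by -1.60 and 0.75, SGK1 by -2.22 and 0.96, FZD7 by -1.07 and 1.30, MCL1 by -1.47 and 0.20 and CDKN1A by 0.07 and 2.27. FOS changed by 2.81 and 2.46 and EGR1 by 1.93 and 1.36, and RNU4ATAC by 3.47 and 0.69 and RNU5A-1 by 3.14 and -0.27.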

How the data were processed

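RNA was measured in 24 libraries of 3 lines. Per the labels' protocols, ribosomal RNA was removed from total RNA with an integrity number of at least 8, and the library kit kept no strand. The submitters' processing notes name bcl2fastq 2.17.1.14, Bowtie 0.12.8 and GRCh38.p5, and the quantifier is not given in the sources used here. The authors' deposited table holds FPKM for 14114 genes, a unit taken from the values and normalized per library, and every gene had a highest group mean of at least 1.219 FPKM.

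Here limma 3.58.1 (R 4.3.3) was fitted to log2(FPKM + 1) with 12 group means and a variance trend, over all 24 libraries. BETd-246 was set against the mean of DMSO and thalidomide, with Benjamini-Hochberg adjustment over 14114 genes and calls below 0.05. The test was tested on simulated data first. Gene types came from GENCODE 29 (13951 matched), promoter sequences from RefSeq and the snRNA sequence from GENCODE 29. Named genes were the 15 largest falls and rises, the 10 largest among coding genes, up to 4 members per list by adjusted p and the 6 largest differences between lines each way, plus a few fixed genes, and others are said to be chosen after seeing values. Risers near small RNA or coding genes were named from their positions. The 42 gene lists and the members were chosen with earlier results of these data known. Alternatives were other scalings, pseudocounts, a filter, either control alone, a replicate block and leaving out each library. Depth was only estimated, so values carry no counting interval. Some items are not reported here.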

Additional observations from a re-analysis of the deposited data

Results flagged for a closer look

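The effect of BETd-246 differed between MDA-MB-468 and the mean of MDA-MB-157 and MDA-MB-231 in 28 genes named in the report, by limma's test of the difference itself (adjusted p below 0.05 over 14114 genes). Values are log2 differences, and a negative one means a lower change in MDA-MB-468.

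Genes with a control mean below 2 FPKM in both other lines were FOXI1 (-2.48), EDN2 (-2.32), PRR15L (-2.32), FOXA1 (-2.01), EGFR-AS1 (-1.98), BMP2 (-1.64), IRX5 (-1.42), GRHL3 (-1.24) and GATA3 (-1.14). The other lower differences were in TRIB1 (-2.10), EGR1 (-1.89), PDE4B (-1.63), CLDN4 (-1.32), ID3 (-1.21), ID1 (-1.14), HOXC13 (-1.08), AXIN2 (-1.07), MYC (-1.07), JUNB (-1.02) and CCDC71L (-1.01). Higher differences were in AP000692.10 (2.19), U47924.31 (1.45), ADM (1.39), C12orf57 (1.26), JUN (1.11), DUSP10 (1.06), SOCS3 (1.01) and TLE3 (0.90).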

How the results depend on the processing

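Of 177 gene results in the report, 169 kept their direction and their call under every alternative that applied to them. EGFR, CDKN1A and JUNB gained a call and KRT17 lost one under the settings given in the report. The exceptions that changed direction were CCND1 (0.07) and CRBN (0.07) after median-of-ratios scaling, and CRBN (0.06), BRD3 (0.10) and DUSP1 (0.07) after quantile normalization. The number of genes called higher was 1274 after scaling to equal FPKM sums, 4266 after upper-quartile, 5415 after quantile and 5980 after median-of-ratios scaling. The number at least 2-fold higher was 27 with a filter at a mean of 5 FPKM, 28 with a pseudocount of 5 FPKM and 88 with 0.1 FPKM, and the number at least 2-fold lower was 250 with the pseudocount of 5 FPKM and 503 after quantile normalization. By construction a larger pseudocount shrinks the folds of low genes and the filter tests fewer genes. The cause of the other changes was not tested.

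For the difference from the other lines, the filter gave 1270 genes called, 323 higher, 47 at least 2-fold lower and 5 at least 2-fold higher. Pseudocounts of 0.1 and 5 FPKM gave 121 and 31 at least 2-fold lower and 46 and 11 at least 2-fold higher. Genes called higher numbered 1239 after quantile normalization and 372 with thalidomide alone as control. Between thalidomide and DMSO, 1 gene was called with a pseudocount of 0.1 FPKM and 22 with 5 FPKM.

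Leaving out 1 library at a time, BETd-246 called 5944 to 7377 genes, 4148 to 4762 lower and 1748 to 2683 higher, with 851 to 890 at least 2-fold lower and 45 to 56 at least 2-fold higher. The lowest count of higher genes, 1748, came without BETd-246 replicate 1. The difference from the other lines called 1315 to 1785 genes, 953 to 1282 lower and 362 to 603 higher, with 72 to 76 and 22 to 28 past 2-fold. Its counts of higher genes were 367 without BETd-246 replicate 1 and 362 without replicate 2. Thalidomide against DMSO called 0 to 71, the 71 without thalidomide replicate 1. A lone library of a group is assumed to vary like the other groups.

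With a replicate block within each line, 4784 genes were lower and 2857 higher. Deviations of same-numbered libraries from their group means correlated with 0.17, 0.20 and 0.33 between the 3 groups, but no label states that a number marks a shared day or batch, so the libraries were not treated as pairs. The fit of MDA-MB-468 alone does not apply to the difference between lines, and single-control settings do not apply to thalidomide against DMSO. With 2 libraries a group and only an estimated depth, small changes of low genes are the least certain.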
